A study of Mus musculus with 4 samples.

Results

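The numbered zinc finger genes are the mouse genes whose symbol on the array is Zfp followed by digits only. The array held 214 such probes for 212 genes, and 193 probes for 192 genes were kept because they had a deposited intensity on all 4 arrays. These members, selected on measured detection, were set against the 18371 other probes with 4 values. Their being detected is therefore not a finding, and their levels are given as a description. The 4 arrays measured RNA of intestinal tumor organoids, 3-dimensional cultures grown in Matrigel and serum-free medium with EGF and Noggin. The organoids came from polyps of ApcMin/+ mice, which are heterozygous for a mutation of Apc. According to the paper, loss of Apc in the tumor cells keeps the Wnt pathway active. Untreated control organoids were compared with organoids that had received 1 μM 5-Aza-CdR, a nucleoside that traps DNA methyltransferases, with RNA taken at day 4. Organoids with a lentiviral empty-vector shRNA (control shRNA, called Mock in the labels) were compared with organoids carrying a lentiviral shRNA against Dnmt1, with selection by puromycin and RNA taken at day 9. Each condition was measured on 1 array, so that differences could not be set against the spread of replicates, and no test was made. The number of arrays limits the precision of every value below.

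Most numbered Zfp genes code for proteins with C2H2 zinc fingers, loops held by a zinc ion that read DNA in tandem. Many of them also carry a KRAB domain, which recruits the corepressor Trim28 and, through it, the histone methyltransferase Setdb1, and such proteins are known for silencing retroelements and for keeping imprints methylated. The genes have multiplied by duplication, so that close relatives lie side by side on a chromosome. A few members belong to other zinc finger classes, such as the CCCH protein Zfp36, or bear the name through a single finger. Dnmt1, which the shRNA silences and 5-Aza-CdR traps, copies DNA methylation onto the new strand at replication.

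The RefSeq annotation of GRCm38.p6 recognized all 192 symbols, and 37 of these genes now carry another name. Among them, Zfp238 is now Zbtb18, Zfp313 is Rnf114, Zfp295 is Zbtb21, Zfp306 is Zkscan3, Zfp406 is Zfat, Zfp291 is Scaper and Zfp265 is Zranb2. The members lay on 20 chromosomes, with 43 on chromosome 7 and 15 on chromosome 13. Of the 192 genes, 64 stood in 14 runs of 3 or more members whose neighbours started within 500 kb of each other.

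Promoter windows of RefSeq, from 250 bases before to 50 bases after a transcription start, were matched for 155 of the 192 genes, in 207 windows. The member windows held a median of 18 CpG dinucleotides (quartiles 12 and 26), against 7 in all 32851 mouse windows and 13 in the 21262 windows of protein-coding genes. The 250 bases upstream of 3 members are shown because these genes had the highest ratio after 5-Aza-CdR (Zfp598), the highest with Dnmt1 knockdown (Zfp52) and the lowest with Dnmt1 knockdown (Zfp238). The sequences are those of RefSeq on GRCm38.p6, written 5′ to 3′, with each CpG in capitals. The stretch of Zfp598 is chr17:24669437-24669686 on the plus strand and holds 20 CpG, that of Zfp52 is chr17:21535289-21535538 on the plus strand and holds 4, and that of Zfp238 is chr1:177442101-177442350 on the plus strand and holds 47. Zfp238 had 5 annotated starts, and the other stretches of 250 bases held 0 to 2 CpG. Which start the organoids used was not measured.
Zfp598: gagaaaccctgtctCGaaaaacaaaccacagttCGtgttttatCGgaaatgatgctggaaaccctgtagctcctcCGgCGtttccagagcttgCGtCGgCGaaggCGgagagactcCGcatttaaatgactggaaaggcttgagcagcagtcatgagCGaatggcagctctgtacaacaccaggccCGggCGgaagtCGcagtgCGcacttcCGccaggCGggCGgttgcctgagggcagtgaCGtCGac
Zfp52: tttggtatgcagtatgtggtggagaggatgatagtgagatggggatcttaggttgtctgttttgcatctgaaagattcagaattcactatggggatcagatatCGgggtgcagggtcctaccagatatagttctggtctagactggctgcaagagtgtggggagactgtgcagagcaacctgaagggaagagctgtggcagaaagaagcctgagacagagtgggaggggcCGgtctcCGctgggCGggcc
Zfp238: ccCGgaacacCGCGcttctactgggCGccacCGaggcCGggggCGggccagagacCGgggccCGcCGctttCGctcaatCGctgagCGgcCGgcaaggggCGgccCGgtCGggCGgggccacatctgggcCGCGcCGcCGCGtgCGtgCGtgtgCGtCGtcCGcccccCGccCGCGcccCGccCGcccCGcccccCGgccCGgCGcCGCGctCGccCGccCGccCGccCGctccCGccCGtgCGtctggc

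Motifs were searched as exact letters on both strands of the windows. The letters ACTACAATT, the core of the sequence bound by Zfp143 (known from its human and frog homologs), were found in 9 of 207 member windows (4.35%), which belonged to 8 genes, against 0.393% of all windows and 0.508% of protein-coding windows. The Ets motif CCGGAAGT was in 13.04% of member windows (27 of 207) against 3.89% of all windows and 5.15% of protein-coding windows. The GC box GGGCGG was in 50.2% of member windows, 35.7% of all and 46.2% of protein-coding windows. The letters TGCCGC, which Zfp57 reads when their CpG is methylated, were in 21.3%, 11.6% and 14.1%. Matches of different motifs may share bases, and a match is not evidence that a protein bound there. The sites of Zfp143 type are shown for 6 members because the letters around the core, ttctggg on one side, recurred in genes of chromosomes 7 and 11, with 1 letter changed on chromosome 8. Zfp111 and Zfp692 had the core without it. The core is in capitals, 5′ to 3′ on the strand of the gene. The sites lie at chr7:12881155-12881183 (plus strand, Zfp128), chr7:24081867-24081895 (plus, Zfp180), chr7:24254719-24254747 (plus, Zfp108), chr7:24270339-24270367 (plus, Zfp93), chr8:111643410-111643438 (plus, Zfp1) and chr11:50887656-50887684 (minus, Zfp454).
Zfp128: gccttctgggAATTGTAGTctcagtgtcc
Zfp180: gagttctgggAATTGTAGTtccattgagc
Zfp108: gcattctgggAATTGTAGTtctggagcca
Zfp93: gaattctgggAATTGTAGTtccaacgcca
Zfp1: gcattatgggAATTGTAGTcctacacctc
Zfp454: gccttctgggAATTGTAGTttcggccaca

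Zfp180, Zfp108 and Zfp93 are neighbours on chromosome 7. In the order untreated control, 5-Aza-CdR, control shRNA and Dnmt1 knockdown, which is kept wherever 4 intensities follow each other, Zfp180 had intensities of 24.5, 31.9, 21.2 and 23.1. Zfp93 had 58.1, 62.5, 25.97 and 26.3. The 2 shRNA cultures were thus close to each other for Zfp93 and below the 2 other cultures. The 6 genes shown had log2 ratios, on the normalized scale explained further on, between -0.11 (Zfp1) and 0.07 (Zfp180) after 5-Aza-CdR and between -0.09 (Zfp1) and 0.02 (Zfp454) with Dnmt1 knockdown.

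The deposited intensity is the spot signal less the mean of the blank spots, scaled by the authors so that each array has a median of 25. On this scale the median member had 21.4, 23.0, 15.6 and 17.9 on the 4 arrays. The other probes had medians of 35.8, 41.4, 27.2 and 30.3. The members were dimmer as a group on every array, and their upper quartile was lower still in proportion, at 73.3, 72.9, 50.9 and 57.9 against 157.5, 179.6, 113.1 and 119.0. The lower quartiles lay closer together, at 8.85, 8.46, 6.36 and 7.86 for the members and 8.92, 10.07, 7.08 and 8.72 for the other probes. When the probes were split into 3 equal classes by their mean log2 intensity, with limits at 13.5 and 82.9, 38.9% of the members were in the dim class, 39.4% in the middle class and 21.8% in the bright class. The brightness of a spot depends on its probe as well as on its transcript, so levels of different genes were not compared one by one.

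**Figure D1:**
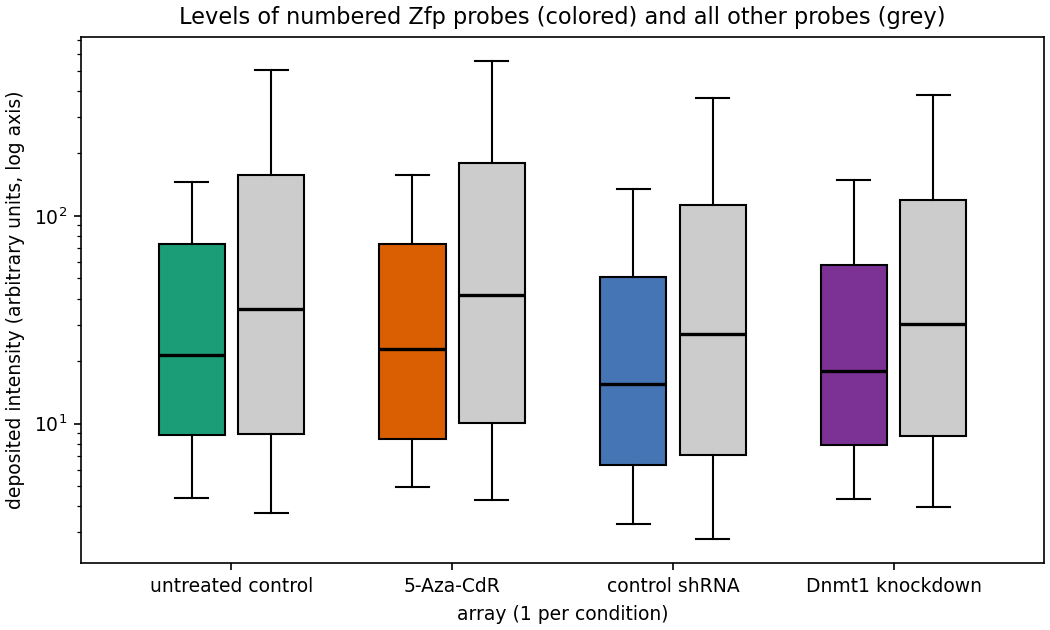
Deposited intensity (arbitrary units, log axis) of the 193 numbered Zfp probes (colored) and the 18371 other probes with 4 values (light grey) on each of the 4 arrays. Lines mark medians, boxes quartiles and whiskers the 10th and 90th percentiles. The median of the members was 15.6 to 23.0 and that of the other probes 27.2 to 41.4.

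The organoids expressed epithelial markers such as Cdh1, with intensities of 968 to 2323, and of 8 listed epithelial markers 5 had a probe, with sums of 1512 to 3354 and Krt19 the dimmest at 3.11 to 6.71. Of the immune markers, 4 of 5 had a probe, with sums of 74.5 to 206.6 that were mostly Cd68 (193.7, 177.7, 67.5 and 105.4), while Ptprc was at 2.41 to 4.84. The 3 endothelial markers summed to 14.3 to 30.0, mostly Kdr (25.7, 25.6, 14.3 and 16.4), while Pecam1 was at 0.91 or less or had no value. Vim, a mesenchymal marker, had 2544, 559.7, 39.7 and 10.3, and it made up nearly all of the sums of the 5 mesenchymal markers (2582, 590.7, 57.8 and 34.0), while Col1a1 and Dcn were at 6.93 or less. The part of these markers in the values of the members was not tested, and in RNA of whole cultures fewer cells of a type and less RNA in each cell cannot be told apart. Dnmt1 itself had 238.7, 368.1, 125.7 and 71.7 on the 4 arrays. Spots without a probe had a 95th percentile of 1.90 to 4.48, and 166 of the 193 members were above it on all 4 arrays.

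The level of detection set the edge of the family. Of the 21 numbered Zfp probes left out, 8 had 3 values, 6 had 2, 3 had 1 and 4 had 0. Among those with 3 values, Zfp574 had 5.97 in the untreated control, 6.71 after 5-Aza-CdR and 1.90 with Dnmt1 knockdown. Just inside the rule, Zfp667 had 0.97, 2.59, 2.62 and 1.68, Zfp2 had 1.93, 1.88, 2.55 and 1.53, and Zfp488 had 1.86, 2.46, 1.32 and 1.35. These 3 members had the lowest mean intensities and lay at or near the level of spots without a probe. At the other end, Zfp706 was the brightest member, with 568.1, 749.6, 1228 and 1043. Zfp706 is known from mouse embryonic stem cells, where it is needed to leave self-renewal.

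For the log2 ratios the spot signals were background-corrected (normexp, offset 50) and brought to 1 common distribution by quantile normalization. Ratios of dim probes are drawn toward 0 by the offset. After 5-Aza-CdR, no member was 2-fold higher or lower than in the untreated control, against 1.06% of all 18564 probes higher and 0.673% lower. At 1.5-fold there was again no member on either side, against 2.83% of all probes higher and 2.71% lower. The members' log2 ratios went from -0.46 to 0.49 with a median of -0.01, and the largest was 1.4-fold. The median of the other probes was also -0.01, but their ratios went from -3.08 to 3.67. The middle 50% of the members spanned 0.13 on the log2 scale and that of the other probes 0.17. Within the dim class these widths were 0.05 for the members and 0.06 for the others, in the middle class 0.17 and 0.21, and in the bright class 0.31 and 0.42. Of the 42 bright members none passed 2-fold, where 3.76% of the 6146 other bright probes did. Within each class the members thus held a narrower span than the other probes, by counts that no test accompanies. The bright class has no upper limit, so brightness was not matched within it. In the control shRNA the members reached 1228 and the other probes 39730. In the deposited intensities the widths were 0.36 and 0.50 in the dim class, 0.46 and 0.47 in the middle class and 0.40 and 0.51 in the bright class.

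**Figure D2:**
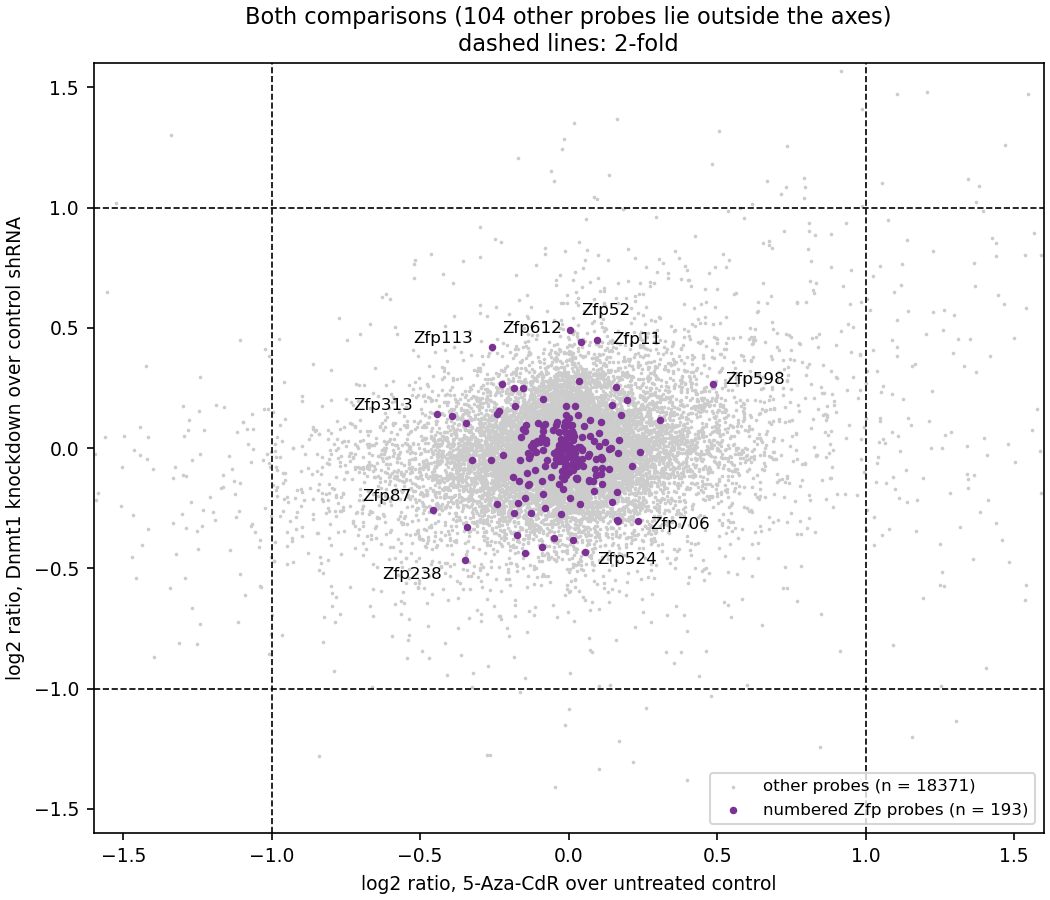
Log2 ratio of each probe after 5-Aza-CdR over the untreated control (horizontal) and with Dnmt1 knockdown over the control shRNA (vertical), with the 193 members in purple and other probes in grey, 104 of which lie outside the axes. All members lie inside the dashed 2-fold lines, between -0.46 and 0.49 in both directions.

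Zfp598 was the member with the highest ratio after 5-Aza-CdR. It codes for a ubiquitin ligase that marks collided ribosomes, and its 20 upstream CpG are shown above. Its intensities were 173.5, 293.9, 161.1 and 210.1. The log2 ratio was 0.49 after 5-Aza-CdR, higher than that of 95.9% of the other probes, and 0.27 with Dnmt1 knockdown. Both treated cultures were therefore above both controls. Next came Zfp406 (25.1 and 46.6, log2 ratio 0.31), whose product Zfat acts in lymphocyte development, Zfp306 (177.5 and 246.3, 0.24), a repressor of autophagy genes, Zfp706 (568.1 and 749.6, 0.23) and Zfp106 (108.1 and 152.6, 0.22). With the local background of the spots subtracted, the ratio of Zfp406 was -0.17. With Dnmt1 knockdown Zfp406 had 0.12, Zfp306 -0.01 and Zfp106 -0.08, and Zfp706 had the opposite sign, at -0.30.

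The lowest ratio after 5-Aza-CdR was that of Zfp87, with 117.2 in the untreated control and 84.6 after treatment, a log2 ratio of -0.46. Zfp313, the ubiquitin ligase Rnf114, had 354.7 and 286.6, a log2 ratio of -0.45, and Zfp295 had 209.3 and 172.3, a log2 ratio of -0.39. Zfp238 followed with 75.1 and 57.3 (-0.35), then Zfp707 with 149.3 and 125.1 (-0.35). Zfp313, Zfp295 and Zfp707 had the opposite sign with Dnmt1 knockdown, at 0.14, 0.14 and 0.11, and Zfp87 and Zfp238 the same sign, at -0.26 and -0.46.

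As a measure of probe error, 120 genes with more than 1 probe were used. The SD of the log2 ratio within a gene was 0.23 after 5-Aza-CdR and 0.16 with Dnmt1 knockdown. Past 2 such SD (0.46) after 5-Aza-CdR lay 1 member above, Zfp598, against 4.49% of all probes, and 0 members below, against 4.26%. With Dnmt1 knockdown 4 members lay above 0.31, namely Zfp11, Zfp113, Zfp52 and Zfp612, against 4.3% of all probes, and 8 lay below, namely Zfp148, Zfp238, Zfp367, Zfp397, Zfp524, Zfp560, Zfp639 and Zfp68, against 4.89%. The 8 below made up a share near that of all probes. This spread covers probe differences only and not differences between cultures. Only 1 member gene had 2 probes, Zfp553, and they differed: between the 2 controls 1 probe had 22.1 and 5.51 and the other 14.9 and 14.4.

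With Dnmt1 knockdown, no member was 2-fold higher or lower than in the control shRNA, against 0.377% of all probes higher and 0.129% lower. At 1.5-fold the members again gave 0 on both sides, against 1.23% and 0.846%. The members' log2 ratios went from -0.46 to 0.49 with a median of -0.02, and 80 of 193 (41.5%) were above 0, against 49.8% of the other probes. The middle 50% spanned 0.16 for the members and 0.16 for the others. In the bright class these widths were 0.31 and 0.30, and in the dim class 0.08 and 0.08, so that the narrower span of the members after 5-Aza-CdR had no counterpart here. Whether the 2 comparisons differed in this was not tested.

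Zfp52 had the highest ratio with Dnmt1 knockdown, and its promoter window was poor in CpG. Its intensities were 5.76, 6.79, 28.5 and 56.1, a log2 ratio of 0.49 for the knockdown. It was thus dim in both cultures without a lentivirus and brighter in both with one. Zfp11 had 86.4, 110.9, 211.9 and 315.6, a log2 ratio of 0.45, and the control shRNA was again above the untreated control. Zfp612 had 21.4, 26.5, 10.4 and 27.5. Its log2 ratio with the knockdown was 0.44. In the deposited intensities the knockdown culture was level with the 5-Aza-CdR culture, and the control shRNA stood low. On the normalized scale the control shRNA was at -0.20 over the untreated control, a smaller step than the 0.44 of the knockdown. Zfp113 had 165.2, 151.1, 109.8 and 166.6, a log2 ratio of 0.42 with the knockdown and -0.26 after 5-Aza-CdR. The untreated control and the knockdown culture were close for this gene in the deposited intensities. On the normalized scale the control shRNA was at -0.09 over the untreated control, a smaller step than the 0.42 of the knockdown. With arrays scaled to 1 median the ratio after 5-Aza-CdR was 0.11. Zfp580 had 73.5 in the control shRNA and 102.0 with the knockdown, a log2 ratio of 0.28.

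Zfp238, a repressor needed for the development of cortical neurons, had the lowest ratio with Dnmt1 knockdown. Its intensities were 75.1, 57.3, 30.4 and 16.5. Each treated culture was below its own control, with log2 ratios of -0.35 and -0.46, and the 2 controls differed by more than either pair on the same scale, -0.50. Zfp68 had 221.5 in the control shRNA and 162.1 with the knockdown (-0.44), Zfp524 had 45.1 and 29.4 (-0.43) and Zfp560 had 89.7 and 66.4 (-0.41). Zfp367, with 25.3 and 15.0 (-0.38), was at 3.57 and 4.76 in the 2 cultures without a lentivirus. Zfp148, a factor that binds GC-rich promoters, had 46.9, 42.5, 106.0 and 82.1, with log2 ratios of -0.17 after 5-Aza-CdR and -0.36 with the knockdown. The ratio with the knockdown was 0.02 when the local background was subtracted.

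**Figure D3:**
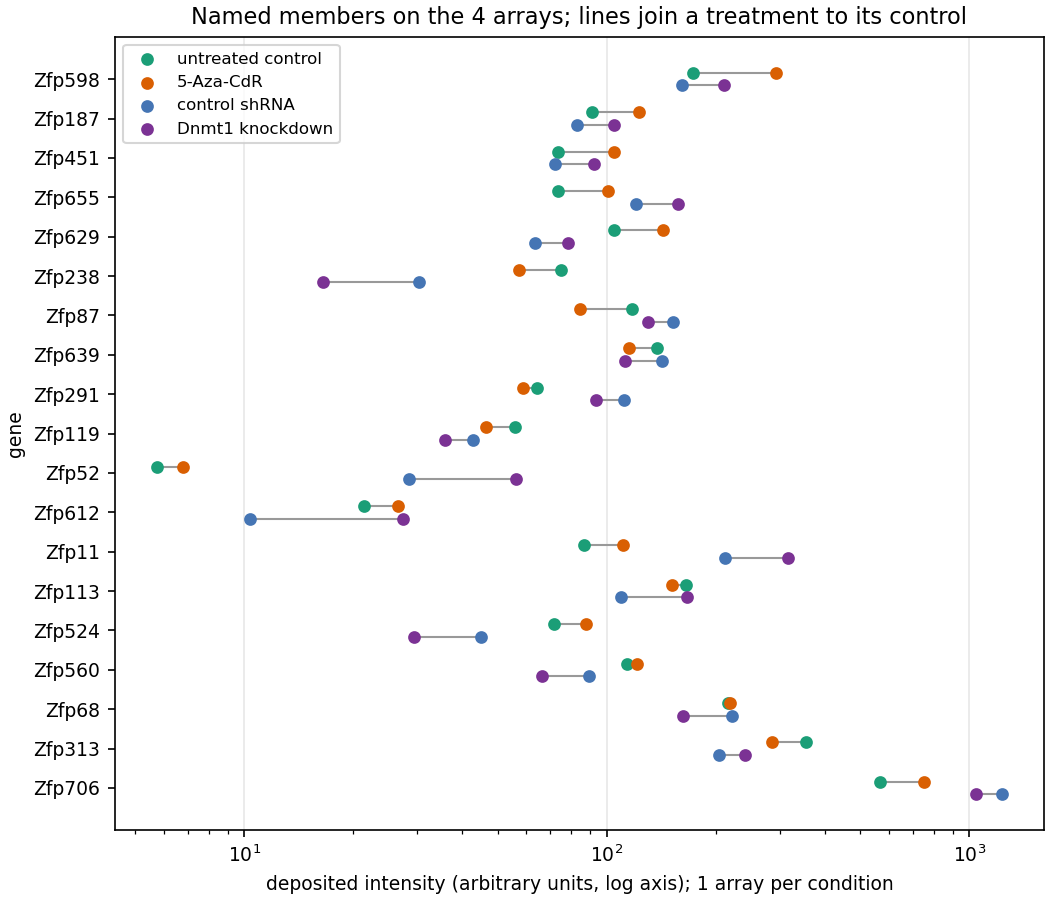
Deposited intensity (arbitrary units, log axis) of 19 named members on the 4 arrays, each point 1 array, with lines joining each treatment to its control. For Zfp598 both treated cultures lie right of both controls, and for Zfp52 both shRNA cultures (28.5 and 56.1) lie right of the 2 others (5.76 and 6.79).

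On the scale of the deposited intensities, which has no offset, 2 members were 2-fold higher after 5-Aza-CdR, against 4.88% of all probes, and none was 2-fold lower, against 1.67%. They were Zfp185, a LIM domain protein of the actin cytoskeleton, with 5.49 and 12.3, and Zfp667, with 0.97 and 2.59. With Dnmt1 knockdown 3 members were 2-fold higher on that scale, against 4.75% of all probes, and none lower, against 0.706%. They were Zfp612, Zfp366 with 4.12 and 8.61, and Zfp526 with 2.49 and 5.32. Zfp667, Zfp366 and Zfp526 were dim spots, while Zfp185 reached 47.6 and 36.7 on the arrays of the shRNA cultures. The members' median log2 ratio on the deposited scale was 0.13 after 5-Aza-CdR and 0.17 with Dnmt1 knockdown, and that of the other probes 0.15 and 0.18, so the shift was that of the whole array.

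The 2 comparisons shared no array. On the normalized scale 35 members had a log2 ratio above 0 in both and 60 below 0 in both, 53 were above 0 only after 5-Aza-CdR and 45 only with Dnmt1 knockdown. In the deposited intensities 81 were above 0 in both and 21 below 0 in both, 45 only after 5-Aza-CdR and 46 only with Dnmt1 knockdown above 0, and Pearson's r was -0.08. Back on the normalized scale, Pearson's r between both sets of log2 ratios was 0.07 and Spearman's rho 0.01 over the 193 members, and 0.29 and 0.16 over the other probes. These are correlations across probes, which share the arrays and are not independent replicates. Besides Zfp598, the members highest in both were Zfp655 (73.3, 100.7, 120.4 and 157.2), Zfp451 (73.5, 104.6, 71.9 and 92.5), Zfp187 (91.1, 122.8, 82.9 and 104.5) and Zfp629 (104.9, 143.5, 63.5 and 78.3). In the deposited intensities of Zfp451 and Zfp187 both treated cultures were above both controls. On the normalized scale this did not hold. Over the untreated control, the control shRNA was above 5-Aza-CdR, at 0.30 against 0.20 for Zfp451 and 0.24 against 0.15 for Zfp187. The smaller log2 ratio of the 2 comparisons was 0.20 for Zfp451, 0.16 for Zfp655, 0.15 for Zfp187 and 0.14 for Zfp629. The members lowest in both were Zfp238, Zfp639 (138.1, 115.5, 141.8 and 112.4), Zfp87 (117.2, 84.6, 152.8 and 129.8), Zfp119 (55.8, 46.6, 42.9 and 35.9) and Zfp291 (64.1, 59.0, 111.7 and 93.2). In the deposited intensities of Zfp639 both treated cultures were below both controls, and its log2 ratios were -0.34 and -0.33. On the normalized scale its control shRNA was at 0.41 over the untreated control, a larger step than the -0.33 of the knockdown. That order therefore held only in the deposited intensities.

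Between the 2 control cultures the members' ratios were spread wider than in either comparison. The log2 ratios of the control shRNA over the untreated control went from -0.91 to 1.63, and their middle 50% spanned 0.37, against 0.39 for the other probes. Of the members, 4 were 2-fold higher in the control shRNA, against 4.3% of all probes, and none was 2-fold lower, against 4.06%. The 4 were Zfp706 (1.63), Zfp11 (1.37), Zfp185 (1.21) and Zfp148 (1.10). The cultures differed in vector, selection and day, which cannot be told apart here. Zfp579 had the lowest ratio, -0.91, with intensities of 76.1 and 16.2 in these cultures. In the deposited intensities, which have no offset, 18 of the 193 members were 2-fold higher in the control shRNA and 50 were 2-fold lower, Zfp579 among them, beside 1446 and 4367 of the 18371 other probes.

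Some members act on RNA and ribosomes rather than on DNA. Of 10 such genes listed 8 had 4 values, with a median log2 ratio of 0.09 after 5-Aza-CdR (5 of 8 above 0) and -0.08 with Dnmt1 knockdown (2 of 8 above 0), beside -0.01 and 0.00 for all probes. None differed 2-fold. Zfp207, which helps chromosomes attach to the spindle, had 271.8, 326.6, 272.5 and 255.7. Zfp265, the splicing factor Zranb2, had 274.0, 348.7, 299.9 and 263.9, with log2 ratios of 0.15 and -0.22. In these deposited intensities both were highest after 5-Aza-CdR and lowest with Dnmt1 knockdown. On the normalized scale the order differed. Over the untreated control, the control shRNA was above 5-Aza-CdR, at 0.39 against 0.07 for Zfp207 and 0.51 against 0.15 for Zfp265. Zfp622, a maturation factor of the large ribosomal subunit, had 32.3, 32.3, 31.4 and 44.4, a log2 ratio of 0.20 with the knockdown. Zfp36, or tristetraprolin, which speeds the decay of AU-rich mRNAs, had 17.7, 14.3, 13.4 and 11.01 and was lower in each treated culture than in its control. Zfp346, a protein that binds double-stranded RNA, had 46.8, 61.9, 24.3 and 24.5, with log2 ratios of 0.11 and -0.08, both within the spread of probes of a gene.

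Of 14 other transcription regulators listed, 10 had 4 values, with median log2 ratios of -0.02 after 5-Aza-CdR (4 of 10 above 0) and -0.10 with Dnmt1 knockdown (2 of 10 above 0). The shares above 0 were 46.7% and 49.8% over the other probes. Zfp238 and Zfp148 had the lowest values of this list of regulators with the knockdown. Zfp516, a factor of brown fat, had 20.2, 31.4, 14.3 and 11.1, with log2 ratios of 0.16 and -0.18, and Zfp91, a ubiquitin ligase, had 7.27, 7.49, 13.2 and 12.5. Zfp384 had 12.3, 14.9, 7.07 and 5.27. Of 7 genes of pluripotency 3 had 4 values. Zfp42 (Rex1), a marker of naive stem cells, had 3.79, 4.10, 3.21 and 6.15, close to spots without a probe on the arrays of the shRNA cultures. Zfp281, a factor of embryonic stem cells, had 31.4, 27.9, 34.0 and 41.5, and Zfp217, a corepressor component whose human homolog is amplified in breast cancer, had 8.24, 8.46, 7.60 and 10.03.

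Of 7 genes listed for retroelement and imprint control, only Zfp445, a KRAB protein that keeps imprints, had 4 values. Its intensities of 32.4, 29.8, 30.9 and 33.7 were level across the arrays, with log2 ratios of -0.14 and -0.02. Zfp57, which shares that role, had a value only after 5-Aza-CdR, 1.28, below the 95th percentile of spots without a probe on that array (1.90). Zfp809, Zfp568 and Zfp143 were not analysed here.

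The partners of KRAB proteins, which are no members, were given by a list of 18 genes, of which 15 had values. On the normalized scale 12 of their 17 probes were above 0 after 5-Aza-CdR (median log2 ratio 0.16), against 46.7% of the other probes with 4 values. With Dnmt1 knockdown 7 of 17 were above 0 (median -0.04), against 49.8%. None of the 17 probes passed 2-fold on that scale in either comparison. The list includes Dnmt1, the target of the shRNA, which had the lowest ratio with the knockdown, -0.69. In the deposited intensities an Atf7ip probe passed 2-fold after 5-Aza-CdR, with 31.9 and 79.6, while another Atf7ip probe had 154.1 and 199.0. Trim28 had 560.1, 585.2, 181.4 and 160.2, with log2 ratios of -0.08 and -0.22 for the treatments and -1.03 between the 2 controls. Setdb1 had 86.7, 120.9, 69.1 and 75.2. The corepressor of the KRAB proteins was thus lower in both lentiviral cultures than in the 2 others.

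Members that stand next to each other were compared because they are often close relatives. In the chromosome 17 run of Zfp54, Zfp51, Zfp53 and Zfp52, all 4 genes were higher in the control shRNA than in the untreated control, with log2 ratios of 0.40 to 0.95, while after 5-Aza-CdR they stayed between -0.01 and 0.05. Zfp53 had 14.1, 17.9, 47.7 and 49.2 and Zfp54 had 3.71, 4.02, 13.3 and 12.2. Only Zfp52 of this run was above 0 with Dnmt1 knockdown, the others lying between -0.13 and -0.04. In the run of Zfp41, Zfp623 and Zfp707 on chromosome 15 the direction between the controls was the reverse, from -0.84 to -0.48, and all 3 were above 0 with Dnmt1 knockdown, from 0.00 to 0.27. Zfp397, Zfp35 and Zfp191 on chromosome 18 had 0.40 to 0.77 between the controls and -0.37 to -0.02 with the knockdown. A high or low control shRNA value moves both of these ratios in opposite directions, since that array is in both.

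In the chromosome 13 run of Zfp96, Zfp306, Zfp187, Zfp192 and Zfp184 all 5 genes were above 0 after 5-Aza-CdR, with log2 ratios of 0.03 to 0.24, and 2 of 5 with Dnmt1 knockdown. Zfp96 had 92.8, 123.8, 83.1 and 82.9, and Zfp184 had 40.1, 57.4, 29.2 and 21.2. In the other run of 5 on chromosome 13, Zfp455, Zfp458, Zfp457, Zfp459 and Zfp87, none was above 0 with Dnmt1 knockdown (-0.26 to 0.00) and 2 were after 5-Aza-CdR. The longest run, 8 genes of chromosome 7 from Zfp551 to Zfp98, had 1 of 8 above 0 with the knockdown, with ratios of -0.21 to 0.00, and a median intensity of 7.99. Among the other probes 46.7% were above 0 after 5-Aza-CdR, 49.8% with Dnmt1 knockdown and 48.65% between the 2 controls. Some signs in these and the preceding runs rest on ratios near 0 with the knockdown, such as 0.0004 for Zfp41 and Zfp499 and -0.0002 for Zfp457. These runs were picked for description after their values were seen, and binding of a probe by transcripts of related genes was not tested.

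**Figure D4:**
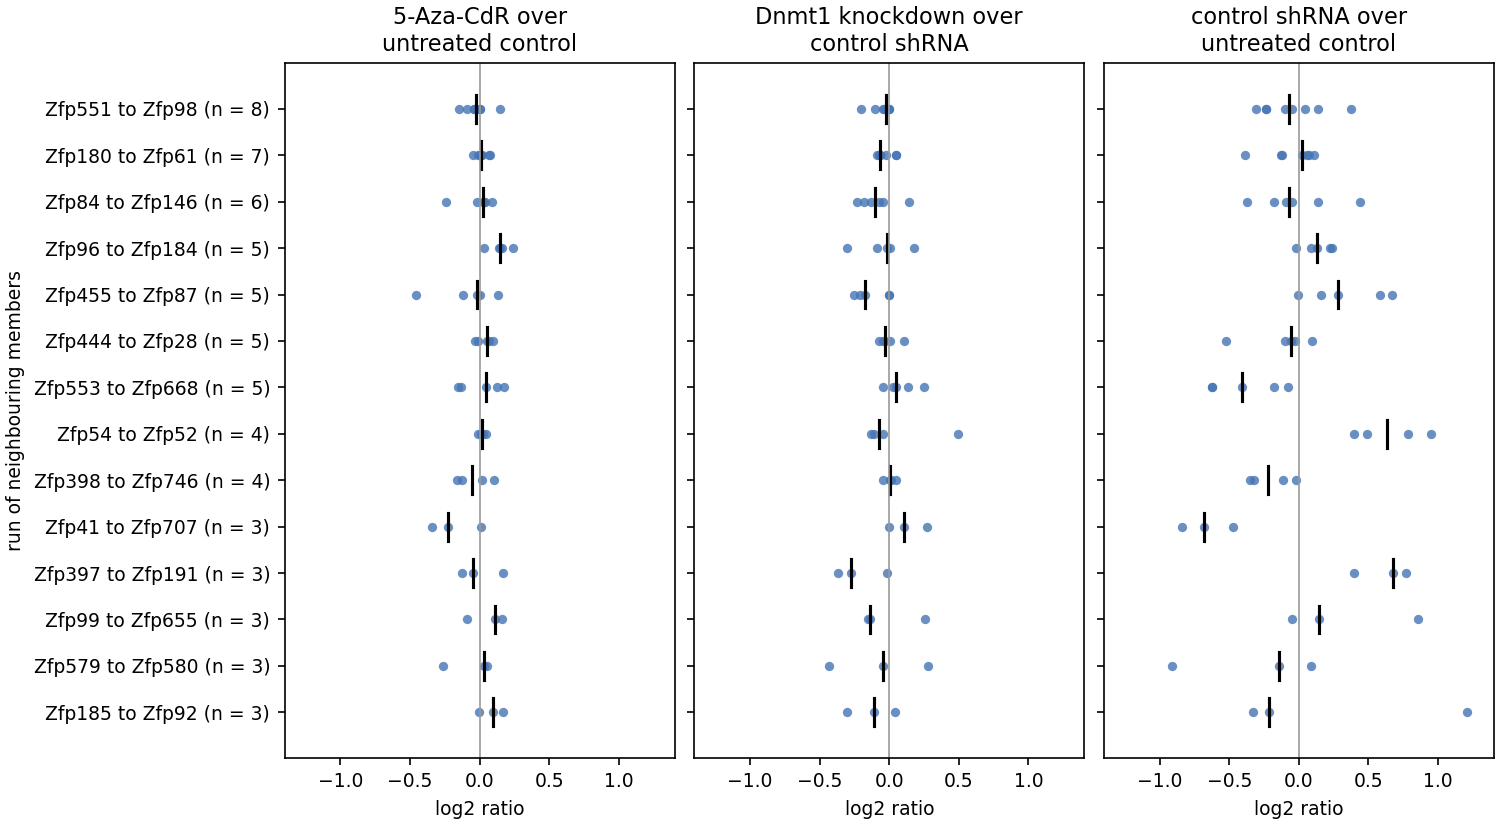
Log2 ratio (horizontal) of each member in the 14 runs of 3 or more neighbouring members (rows, named by their end genes), for both treatments and for the 2 controls, each point 1 gene and each tick the median of a run. The points spread widest between the 2 controls, where the run from Zfp54 to Zfp52 lies between 0.40 and 0.95 and the run from Zfp41 to Zfp707 between -0.84 and -0.48.

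Ratios were also set against the CpG content of the promoter windows, taken as the median over the windows of a gene. The 52 genes with the fewest CpG (1 to 14) had a median log2 ratio of -0.01 after 5-Aza-CdR and -0.03 with Dnmt1 knockdown. The 49 with a middle number (15 to 21) had 0.01 and -0.02, and the 54 with the most (22 to 59) had -0.03 and -0.0044. Across the 155 genes Spearman's rho of CpG and log2 ratio was -0.08 after 5-Aza-CdR and 0.07 with the knockdown, as a description of genes measured on the same arrays. Members with more CpG in their windows were thus neither higher nor lower as a group in these values. For a gene with several starts the median can hide a window rich in CpG. Zfp238 had a median of 2 CpG and stood in the lowest class, although 1 of its upstream stretches held 47. Methylation itself was not measured on these arrays.

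**Figure D5:**
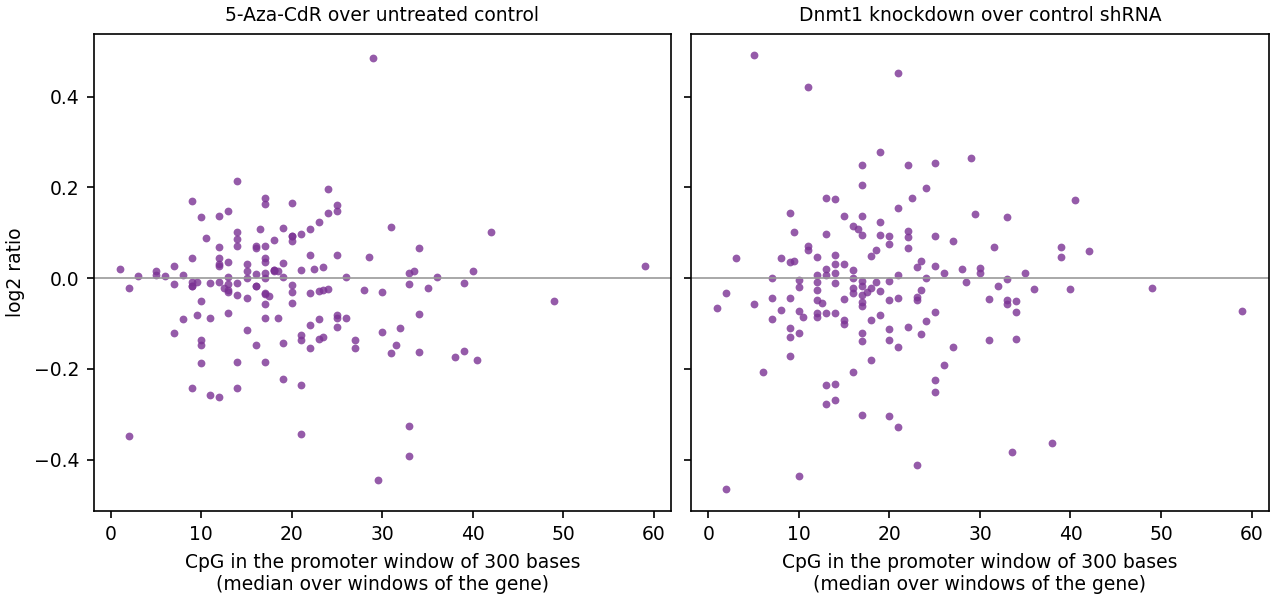
Log2 ratio (vertical) of 155 members against the number of CpG in a promoter window of 300 bases (horizontal, median over the windows of a gene), after 5-Aza-CdR (left) and with Dnmt1 knockdown (right), each point 1 gene. No slope is visible in either panel (Spearman's rho -0.08 and 0.07).

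Other zinc finger families gave a comparison by name. The 19 probes of 18 Zbtb genes, which join C2H2 fingers to a BTB domain, had log2 ratios of -0.17 to 0.46 after 5-Aza-CdR with a median of 0.01, and a median of -0.05 with Dnmt1 knockdown. Families were taken by the symbol on the array, so members now named Zbtb were not counted here. These are Zfp161, Zfp238, Zfp295, Zfp499 and Zfp509. Among them Zfp295 and Zfp238 lay below the range given for Zbtb after 5-Aza-CdR, at -0.39 and -0.35. The 14 Klf genes, factors with 3 fingers that read GC-rich sites, went from -0.35 to 0.95 after 5-Aza-CdR, with a median of 0.04, and up to 0.74 with Dnmt1 knockdown, with a median of -0.03. The 6 Zfp genes with a letter after the number had medians of -0.12 and -0.03. On the normalized scale the highest Klf ratios were above every numbered Zfp member, although 14 genes were set beside 192. No gene of these other zinc finger families passed 2-fold there in either comparison. The Klf probes were brighter, with median intensities of 54.4 to 72.8 on the 4 arrays against 15.6 to 23.0 for the members. The offset draws ratios of dim probes toward 0, and its part in the higher Klf ratios was not tested. In the deposited intensities, which have no offset, Zfp667 after 5-Aza-CdR and Zfp612 with Dnmt1 knockdown were above every Klf gene. Zfp667 had 0.97 in the untreated control, below the 95th percentile of spots without a probe (2.42). On that scale the 95th percentile of the Klf ratios stayed above that of the members. It was 0.98 against 0.58 after 5-Aza-CdR and 0.86 against 0.71 with Dnmt1 knockdown. The medians were 0.33 against 0.13 after 5-Aza-CdR and 0.16 against 0.17 with Dnmt1 knockdown. In the deposited intensities 1 Zbtb probe, 1 Klf gene and 1 lettered Zfp gene were 2-fold higher after 5-Aza-CdR and 1 Klf gene with Dnmt1 knockdown.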

How the data were processed

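RNA was amplified, labelled with Cy5 and hybridized to Toray arrays in a single color, 1 array for each condition. The Methods name a mirVana kit for extraction and the labels an RNeasy kit. The intensity that the authors deposited was recomputed as the spot signal minus the trimmed mean of 2736 blank spots, times a factor (0.554 to 0.829) that sets the array median to 25. On each array 99.99% or more of the values lay within 1% of the recomputed ones. The authors left values near the blank spots empty, so that 81.2% to 92.9% of probes had a value. Gene symbols came from the platform annotation, with 16631 of 23473 probes named. For the log2 ratios, the uncorrected spot intensity that the authors deposited was corrected by limma 3.58.1 (R 4.3.3) with normexp, offset 50 and no local background, followed by quantile normalization of all 4 arrays together. The background correction and normalization were tested on simulated arrays. Their known changes were in bright probes only and larger than those of the members in either comparison. Further steps used Python 3.11.15, pandas 2.3.3, numpy 2.4.6 and matplotlib 3.10.9. No model was fitted. Groups came from the sample descriptions.

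The members, role lists and comparisons were chosen with earlier results of these data known. Named members were those past 2-fold in either comparison, the 5 highest and 5 lowest log2 ratios of each comparison, the 5 highest and 3 lowest mean intensities, the 5 with the largest shared ratios in each direction, genes with more than 1 probe, up to 4 members of each role list with the largest ratio, and Zfp57, Zfp445, Zfp809, Zfp568, Zfp42, Zfp143, Zfp281, Zfp148, Zfp217, Zfp36, Zfp598 and Zfp91, with Trim28 and Setdb1. Other genes, among them Zfp185, Zfp366, Zfp526, Zfp397, Zfp579, Zfp574, the neighbours, the genes with motif sites and those past the spread within genes, were named after their values were seen. Alternatives were the deposited intensities, an offset of 16, plain blank subtraction, subtraction of the local background, scaling to the median or the 75th percentile, quantile normalization within each comparison, all probes of the family, mean intensities of 25 or higher, 1 probe for each gene, and limits of 1.5-fold and 3-fold. Zinc fingers and KRAB domains were not counted, since protein sequences were not used here.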

Additional observations from a re-analysis of the deposited data

Results flagged for a closer look

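Among the 21 numbered Zfp probes outside the members, a signal after 5-Aza-CdR lay above that of the untreated control and above the 95th percentile of spots without a probe (1.90) for the genes that follow. Zfp105 had 9.90 after 5-Aza-CdR and 3.37 in the untreated control, Zfp532 had 3.55 and 1.86, and Zfp287 had 2.49 and 1.38. Zfp422 had 2.05 after 5-Aza-CdR and no value in the untreated control. The others were closer to their control, namely Zfp446 with 6.37 and 4.39, Zfp286 with 6.33 and 5.36, Zfp574 with 6.71 and 5.97, Zfp473 with 2.99 and 2.89, and Zfp710 with 2.13 and 2.07. These genes were picked by deposited intensity, a scale on which 67.0% of the other probes with 4 values were higher after 5-Aza-CdR. On the normalized scale Zfp574, Zfp473 and Zfp710 had log2 ratios of -0.0036, -0.01 and -0.01. The rest of these genes had positive ratios, Zfp105 the highest with 0.17. Zfp113 was noted because it lay in opposite directions in the 2 comparisons, with log2 ratios of -0.26 after 5-Aza-CdR and 0.42 with Dnmt1 knockdown. The difference was not tested, and the first ratio was 0.11 with median scaling.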

How the results depend on the processing

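The count of members past 2-fold was 0 in both directions and both comparisons on the normalized scale. It stayed 0 with an offset of 16, with median or 75th percentile scaling and with quantile normalization within each comparison. With all probes of the family and at 1.5-fold it was 0 as well. Restriction to mean intensities of 25 or higher, to 1 probe for each gene or to 3-fold could give only 0. These settings keep part of the same members or a stricter limit, so they add no support. After 5-Aza-CdR 2 members were higher in the deposited intensities, and with plain blank subtraction 1 was higher (Zfp667) and 1 lower (Zfp518). With Dnmt1 knockdown 3 were higher in the deposited intensities and 1 with plain blank subtraction (Zfp612), while 5 were lower with plain blank subtraction (Zfp112, Zfp2, Zfp238, Zfp367 and Zfp667) and 1 with the local background subtracted (Zfp496). The deposited intensities and plain blank subtraction have no offset, and the cause of each change was not tested. The median of all probes after 5-Aza-CdR moved to -0.30 with 75th percentile scaling, and that of the members to -0.35, with 27 of 193 above 0. In the deposited intensities 126 and 127 of 193 members were above 0 in the 2 comparisons, beside 67.0% and 69.6% of the other probes. Of the named log2 ratios beyond 0.2, the sign changed only for Zfp406 after 5-Aza-CdR (-0.17) and Zfp148 with Dnmt1 knockdown (0.02), both with the local background subtracted, and for Zfp113 after 5-Aza-CdR with median scaling (0.11). No paired analysis was possible because each condition had 1 array and the labels give no replicate numbers. Signal over background limits the dim members, 20 and 21 of which were at or below the 95th percentile of spots without a probe on the arrays of the control shRNA and the Dnmt1 knockdown.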
